A study of Mus musculus with 12 samples.

Results

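Sp8 and Prox1 are transcription factors of the interneurons that the caudal ganglionic eminence (CGE) supplies to the cerebral cortex, and their RNA was followed here on 12 Affymetrix Mouse430_2 arrays. The 2 genes were taken from the 11358 that the table names, through every probe set with a single gene symbol that reads Sp8 or Prox1, which gave 4 of its 27094 probe sets. Sp8 had 1 probe set, 1440519_at, and Prox1 had 3, which were 1437894_at, 1457432_at and 1421336_at. The arrays measured RNA of fluorescent cells sorted from dissociated mouse embryonic cortex, with 3 arrays in each of 4 groups that the titles call biological replicas. CGE cells at E18.5 and at E16.5 came from Nkx2-1-Cre;Dlx1-lox-Venus-lox embryos, in which Cre made under Nkx2-1 control removes a Dlx1-driven Venus reporter from cells of the medial ganglionic eminence (MGE), so that cells of the caudal and lateral eminences keep the signal. MGE cells at E18.5 and at E14.5 came from Nkx2-1-Cre;R26R-YFP embryos, in which the same Cre switches on YFP at the Rosa26 locus. Embryos were pooled, mice of both sexes were kept on a mixed C57BL/6/CBA background, and cells from the upper 80% of the events above background fluorescence were collected. The sources used here give no number of embryos or litters per array, so the spread between arrays may be partly technical. Lineage and reporter line cannot be told apart in this design, and in the earlier comparison the embryonic day differs too.

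Sp8 encodes a zinc-finger protein of the Sp and Klf family, which binds GC-rich DNA. It is made in the lateral and caudal eminences, in olfactory bulb interneurons and in part of the CGE-derived cortical interneurons, and it acts with Fgf signalling in patterning the forebrain. Prox1 encodes a homeodomain protein related to fly Prospero. CGE interneurons make it from their origin in the subpallium into maturity and need it for migration and differentiation, and outside this lineage it is known from dentate granule neurons, lymphatic endothelium, liver, lens and the oligodendrocyte lineage.

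The windows around annotated start sites are shown because both genes were bright in CGE cells at both days, and because the Sp and Klf family reads GC boxes and the Dlx and Lhx homeodomain factors read TAATTA cores. RefSeq (GRCm38.p6) gives 3 windows of 300 bases for Sp8 and 2 for Prox1, each with 250 bases before and 50 after a start site. The letters GGGCGG, searched on both strands as GGGCGG or CCGCCC, stood in 1 of the 3 Sp8 windows and in both Prox1 windows, and 35.7% of 32851 mouse windows of this length hold them. The letters TAATTA, which read the same on both strands, stood in 1 of the 3 Sp8 windows and in neither Prox1 window, and 5.29% of all windows hold them. Capitals mark these letters, and a match is a description of the sequence and not a site of binding. The middle Sp8 window lies at chr12:118846983-118847282 (plus strand), the last Sp8 window at chr12:118847309-118847608 (plus strand), and the outer Prox1 window at chr1:190170778-190171077 (minus strand).
Sp8 middle window: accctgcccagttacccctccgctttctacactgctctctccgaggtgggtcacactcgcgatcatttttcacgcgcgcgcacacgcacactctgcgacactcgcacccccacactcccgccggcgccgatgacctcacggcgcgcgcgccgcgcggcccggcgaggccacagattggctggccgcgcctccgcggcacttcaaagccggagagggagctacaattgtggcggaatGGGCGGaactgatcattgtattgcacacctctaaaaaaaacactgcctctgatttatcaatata
Sp8 last window: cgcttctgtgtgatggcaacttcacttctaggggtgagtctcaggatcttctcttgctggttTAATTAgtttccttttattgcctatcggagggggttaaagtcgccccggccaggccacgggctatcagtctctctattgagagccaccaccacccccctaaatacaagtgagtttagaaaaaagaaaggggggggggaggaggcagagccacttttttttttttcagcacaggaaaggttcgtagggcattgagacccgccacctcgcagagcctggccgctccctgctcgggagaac
Prox1 outer window: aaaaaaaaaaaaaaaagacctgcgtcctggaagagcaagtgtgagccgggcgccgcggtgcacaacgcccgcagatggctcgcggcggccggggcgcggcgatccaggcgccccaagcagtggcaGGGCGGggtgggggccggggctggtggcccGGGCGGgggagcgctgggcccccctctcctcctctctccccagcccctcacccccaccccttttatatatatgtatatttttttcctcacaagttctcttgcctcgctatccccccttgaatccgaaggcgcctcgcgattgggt

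Levels are log2 intensities as deposited, and the level that 40% of the probe sets of an array did not exceed lay between 7.10 and 7.17. A probe set had to pass that level on at least 3 arrays to be tested. Sp8 and Prox1 passed it through the groups in which they were bright, so that passing says nothing of the groups in which they were dim. No detection calls were used here, and a dim value cannot be told from an absent transcript.

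Sp8 was bright in CGE cells at both days and dim in MGE cells at both days. Its level was 11.84, 12.25 and 11.97 in CGE cells at E18.5, and 11.78, 11.94 and 12.03 in CGE cells at E16.5. It was 4.46, 4.58 and 4.57 in MGE cells at E18.5, and 4.20, 4.30 and 4.42 in MGE cells at E14.5. These values lay at percentiles 96.0 to 97.7 of the array in the 6 CGE arrays, and at percentiles 4.59 to 8.05 in the 6 MGE arrays. Group means were 12.02 ± 0.21 in CGE cells at E18.5, 11.91 ± 0.13 in CGE cells at E16.5, 4.54 ± 0.07 in MGE cells at E18.5 and 4.31 ± 0.11 in MGE cells at E14.5 (SD, n = 3 arrays). No CGE array came near any MGE array, and 18.9% of all genes had CGE arrays above MGE arrays without overlap in the earlier comparison, while at E18.5 36.8% had no overlap in either direction. The means of the 2 days of a lineage lay within 0.23 of each other.

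Prox1 was likewise bright in CGE cells at both days, but its level in MGE cells differed between the days. Probe set 1437894_at, the brightest of the 3 and the one that stands for the gene in the tests, read 11.37, 11.39 and 11.96 in CGE cells at E18.5, and 11.47, 12.02 and 12.06 in CGE cells at E16.5. It read 9.12, 8.90 and 9.04 in MGE cells at E18.5, and 4.50, 4.68 and 4.47 in MGE cells at E14.5. The 3 late MGE arrays stood at percentiles 68.4 to 71.7 of the array and above the test level, and the 3 early MGE arrays stood at percentiles 6.48 to 8.79. Group means were 11.57 ± 0.34 in CGE cells at E18.5, 11.85 ± 0.33 in CGE cells at E16.5, 9.02 ± 0.11 in MGE cells at E18.5 and 4.55 ± 0.11 in MGE cells at E14.5 (SD, n = 3 arrays). From high to low the order was both CGE groups, which overlapped, then MGE cells at E18.5, then MGE cells at E14.5, and the last 2 steps were wider than the spread of any group. In bulk RNA, fewer cells that make Prox1 and less Prox1 RNA in each cell cannot be told apart.

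The other Prox1 probe sets gave the same order with different spacing. Probe set 1457432_at read 10.74, 10.51 and 11.50 in CGE cells at E18.5, and 11.11, 11.50 and 11.67 in CGE cells at E16.5. It read 8.30, 8.05 and 8.06 in MGE cells at E18.5, and 6.33, 6.02 and 6.59 in MGE cells at E14.5, so that its dimmest group sat higher than with the other probe sets. Probe set 1421336_at read 10.06, 9.70 and 10.66 in CGE cells at E18.5, and 10.21, 10.76 and 10.55 in CGE cells at E16.5. It read 6.99, 6.83 and 7.37 in MGE cells at E18.5, of which 1 array passed the test level, and 3.89, 3.75 and 3.39 in MGE cells at E14.5. On all 3 probe sets every late MGE array lay above every early MGE array, as for 20.8% of all genes on their main probe set, and below every CGE array.

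**Figure D1:**
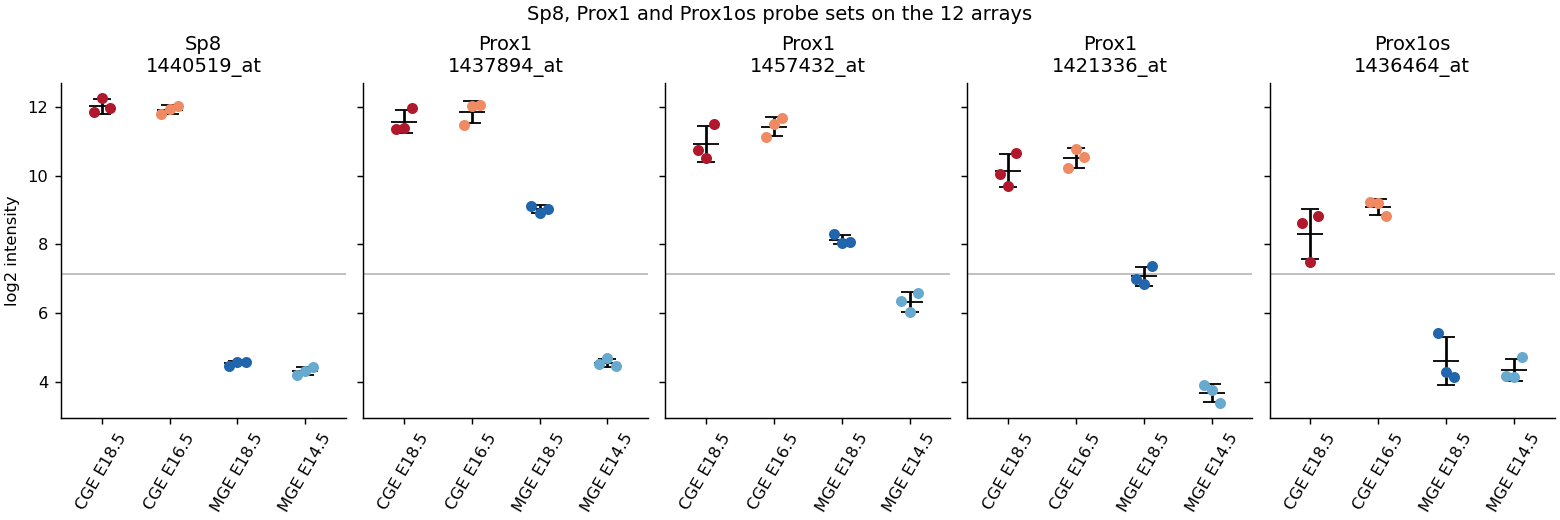
The log2 intensity (y axis) of the Sp8 probe set, the 3 Prox1 probe sets and the Prox1os probe set is plotted in each of the 4 groups (x axis). Points are single arrays, bars are the mean and SD of 3 arrays, and the grey line is the level required for a test. The 6 CGE arrays lie at 9.70 or above for Sp8 and for each Prox1 probe set, and MGE cells at E18.5 lie between the CGE cells and the MGE cells at E14.5 for Prox1.

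The earlier lineage comparison set CGE cells at E16.5 against MGE cells at E14.5, when cells of each origin are entering the cortex. Sp8 was higher in CGE cells by 7.61 ± 0.13 on the log2 scale (SE, n = 3 arrays per group), a ratio of intensities of 195, with an adjusted p of 7.44e-12 in limma. Prox1 was higher by 7.30 ± 0.19, a ratio of 157.3 (adjusted p = 5.68e-10). Both were among the 5.9% of 8795 genes called higher in CGE cells here at an adjusted p under 0.05. On the other probe sets of Prox1 the difference was 5.11 ± 0.24 for 1457432_at (adjusted p = 1.58e-07) and 6.83 ± 0.25 for 1421336_at (adjusted p = 1.36e-08). The probe sets differed in the size but not in the direction, and ratios against so dim a group depend on how each probe set behaves near the bottom of its scale. Both genes were chosen with earlier results of these data known, and here only their CGE arrays passed the test level. The p-values of this comparison are therefore no independent support.

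At E18.5 the embryonic day was the same for both lineages, and the distance between them was nearly the same for Sp8 and much smaller for Prox1. Sp8 was higher in CGE cells by 7.48 ± 0.13, a ratio of 178.1 (limma, adjusted p = 9.09e-12). Prox1 was higher by 2.55 ± 0.19, a ratio of 5.86 (adjusted p = 1.66e-06), and its other probe sets gave 2.78 ± 0.24 (adjusted p = 7.29e-06) and 3.08 ± 0.25 (adjusted p = 3.29e-06). Of all genes tested, 9.85% were called higher in CGE cells at this day. Over both days together, the 6 CGE arrays averaged 11.97 and the 6 MGE arrays 4.42 for Sp8, a difference of 7.54 (two-sided exact permutation test, p = 0.00216). For Prox1 they averaged 11.71 and 6.79, a difference of 4.92 (two-sided exact permutation test, p = 0.00216), and this p is the smallest that 924 divisions of the arrays can give. Because the genes were chosen with earlier results of these data known, the p-values at E18.5 and over both days are no independent support either.

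Within CGE cells neither gene passed the test between E18.5 and E16.5. Sp8 differed by 0.10 ± 0.13 (limma, adjusted p = 0.653, 95% interval -0.18 to 0.38) and Prox1 by -0.28 ± 0.19 (adjusted p = 0.382, 95% interval -0.69 to 0.14). The other Prox1 probe sets gave -0.51 ± 0.24 (adjusted p = 0.208) and -0.37 ± 0.25 (adjusted p = 0.367), and on all 3 the arrays of the 2 days overlapped. A change of Prox1 by up to 0.69 downward is within the interval of its main probe set.

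Within MGE cells Prox1 was higher at E18.5 than at E14.5 by 4.47 ± 0.19 on 1437894_at, a ratio of 22.17, by 3.39 ± 0.25 on 1421336_at and by 1.82 ± 0.24 on 1457432_at. Averaging the probe sets of the gene gave 3.23. This pattern was a reason for choosing the gene, and the values are given as a description with no test. Sp8 was below the test level on all 6 MGE arrays, so that its difference between the days, 0.23 ± 0.13, is given with no test and nothing is read from it.

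The lineage difference was therefore smaller at E18.5 than at the earlier days by 4.75 ± 0.27 for Prox1 on its main probe set, given with no test for the same reason. For Sp8 the change was -0.13 ± 0.18 (limma, adjusted p = 0.734, 95% interval -0.53 to 0.26), where 8.64% of all genes passed the test, and its MGE part rests on values below the test level.

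**Figure D2:**
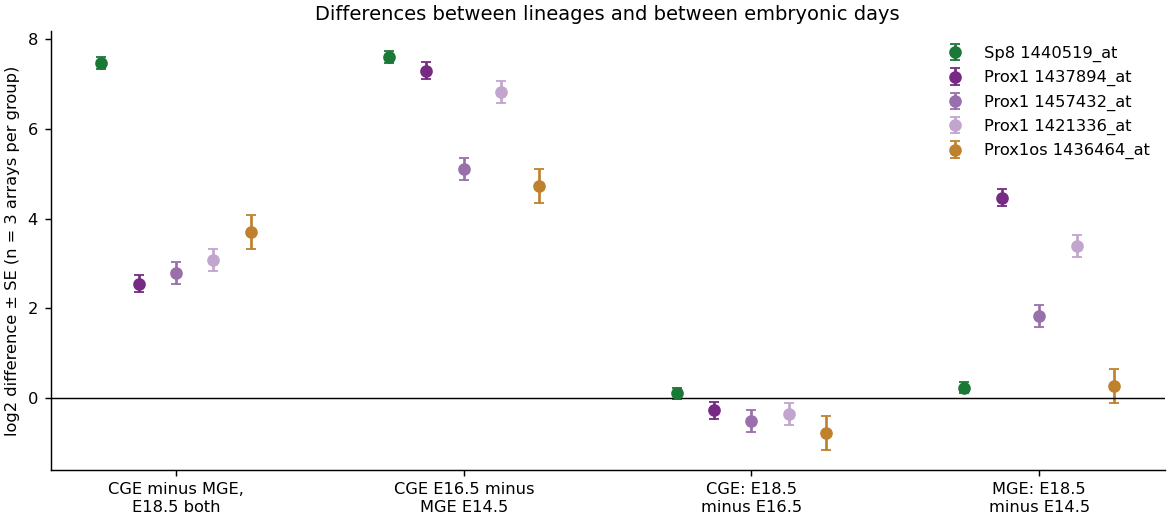
Log2 differences with their SE (y axis, n = 3 arrays per group) are shown for the probe sets of Sp8, Prox1 and Prox1os in 4 comparisons (x axis), 2 between lineages as CGE minus MGE and 2 between days as E18.5 minus the earlier day. Sp8 lies near 7.5 in both lineage comparisons and near 0 between days in CGE cells, and its value between days in MGE cells rests on arrays below the test level. Prox1 lies lower at E18.5 (2.55 to 3.08) than in the earlier lineage comparison (5.11 to 7.30).

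Prox1os is a noncoding RNA gene whose annotation overlaps that of Prox1, and the sources used here do not say whether the labelling kept the strand. Its probe set, 1436464_at, read 8.63, 7.47 and 8.81 in CGE cells at E18.5, and 9.23, 9.19 and 8.82 in CGE cells at E16.5. It read 5.41, 4.28 and 4.13 in MGE cells at E18.5, and 4.17, 4.15 and 4.71 in MGE cells at E14.5, all below the test level. Unlike the 3 Prox1 probe sets, its late and early MGE arrays overlapped. It was higher in CGE cells by 4.73 ± 0.38 in the earlier comparison (limma, adjusted p = 8.29e-06) and by 3.70 ± 0.38 at E18.5 (adjusted p = 2.39e-05). Prox1os passed the filter through CGE arrays alone, so these p-values are no independent support. Between days it differed by -0.78 ± 0.38 in CGE cells (adjusted p = 0.215), where the late arrays lay below the early ones without overlap, as for 16.3% of all genes. The difference between Prox1 and Prox1os in MGE cells was not itself tested.

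The late MGE arrays, on which Prox1 was higher, also carried RNA of the oligodendrocyte lineage, part of which arises from Nkx2-1 territory. Of 11 tested markers of oligodendrocyte precursors, 11 were called higher in MGE cells at E18.5 than at E14.5, with a median of 4.24, where 11.4% of all genes were called higher and the median over all genes was -0.06. Of the 12 in the table, 7 were below the test level on every MGE array at E14.5, and 11 were above it on every MGE array at E18.5. Some were therefore tested through the late MGE arrays alone, and counts of these markers called are partly set by the filter. The mean level of the 12 markers in the table was 10.48 to 11.26 in the MGE arrays at E18.5 and 6.67 to 6.89 in those at E14.5. In the CGE arrays, on which Prox1 was highest, the same mean was 5.72 to 5.99 at E18.5 and 5.43 to 5.69 at E16.5. Olig2, Sox10, Pdgfra and Nkx2-2, which define the lineage, were below the test level on every CGE array. Of the 12 markers, 10 were so at E18.5 and 11 at E16.5. Ptprz1 was above that level on every CGE array, with means of 9.81 and 9.96, and Sox8 on those at E18.5 (8.15). In the earlier comparison 1 of 11 was called higher in CGE cells and 7 lower, against 5.9% and 4.16% of all genes. Between days in CGE cells 2 of 11 were called higher, against 4.49%. At E18.5 all 11 tested markers were called lower in CGE than in MGE cells, with a median of -5.47, where 13% of all genes were called lower. Among the 3 late MGE arrays the marker mean was highest in replicate 3 (11.26). Prox1 was highest in replicate 1 on its main probe set (9.12) and on 1457432_at (8.30). On 1421336_at Prox1 was highest in replicate 3 (7.37), and with 3 arrays nothing is read from this order. The part of these cells in the Prox1 level of the late MGE arrays was not tested.

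**Figure D3:**
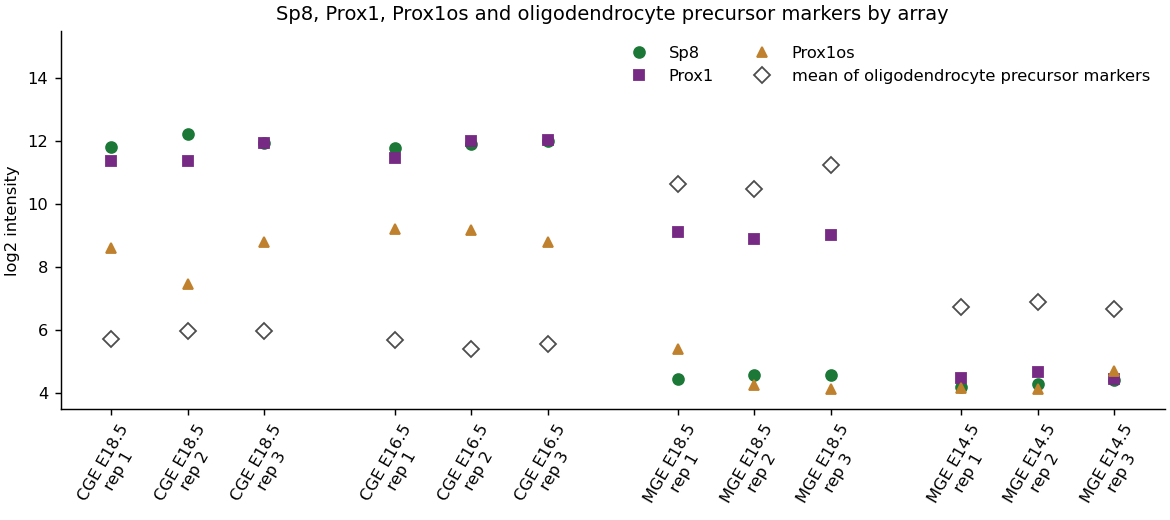
The log2 intensity (y axis) of Sp8, Prox1 (1437894_at) and Prox1os and the mean of 12 oligodendrocyte precursor markers are plotted for each of the 12 arrays (x axis). The marker mean is 10.48 to 11.26 in MGE cells at E18.5, where Prox1 is 8.90 to 9.12, and 5.43 to 5.99 in the CGE arrays, where Prox1 is 11.37 to 12.06.

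Markers of other cells were read on the same arrays. Of the dentate granule neuron markers, 3 of 6 were in the table, and Neurod1 and Tdo2 were below the test level on every array of the 4 groups. The third, Calb1, was called lower in MGE cells at E18.5 than at E14.5, at 6.66 ± 0.23 against 8.69 ± 0.29 (SD, n = 3 arrays; limma, adjusted p = 0.0285). Calb1 was below the test level on every MGE array at E18.5. Without the MGE arrays at E14.5, where it was high, it would not have been tested, so its call is no independent support. Of 10 endothelial markers 2 were in the table. Flt1, a receptor of blood vessels, stayed below the test level on every array, and Pdpn, a membrane glycoprotein that lymphatic endothelium shares with glia, rose to 8.16 ± 0.50 in MGE cells at E18.5, against 5.69 ± 0.12 at E14.5 (SD, n = 3 arrays; limma, adjusted p = 4.45e-05). Pdpn was above the test level only on MGE arrays at E18.5 and was tested through them alone, so its call is no independent support. Markers of radial glia and astrocytes averaged 10.11 to 10.44 in the MGE arrays at E18.5 and 8.27 to 8.74 in those at E14.5, and 6 of 7 tested members were called higher at E18.5, against 11.4% of all genes. In CGE arrays they averaged 8.94 to 9.43 at E18.5 and 8.24 to 8.61 at E16.5. Microglial markers also moved with the day, with 3 of 3 tested members called higher at E18.5 in MGE cells, against 11.4% of all genes, and 3 of 3 in CGE cells, against 4.49% of all genes. These members were below the test level on every array of the earlier days and were tested through the E18.5 arrays alone. The part of these cells in the level of Prox1 was not tested.

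Sp8 is also known from the lateral eminence and its olfactory and striatal surroundings, and the CGE sort keeps cells of the lateral eminence. The mean of 6 markers of lateral eminence, striatal and olfactory cells was 8.22 to 9.80 in CGE arrays at E18.5 and 7.57 to 8.89 in CGE arrays at E16.5, against 7.07 to 7.18 in MGE arrays at E18.5 and 6.30 to 6.47 in MGE arrays at E14.5. Within each CGE group the highest marker mean was that of replicate 1, at 9.80 and 8.89, and replicate 1 had the lowest Sp8 level of its group, at 11.84 and 11.78. The highest Sp8 levels of the 2 groups were 12.25 and 12.03, and with 3 arrays per group nothing is read from this order. Of 4 tested members, 2 were called higher in CGE cells in the earlier comparison and 3 at E18.5, where 5.9% and 9.85% of all genes were. Their medians were 1.92 and 2.54, and 0 were called lower in either comparison by limma. Foxp2, which was tested, was below the test level on every MGE array. It was tested through CGE arrays alone, so counts that include it are partly set by the filter. Gsx2, a factor of lateral eminence progenitors, was not tested and was below that level on every array. The part of these cells in the Sp8 level was not tested.

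The zinc-finger relatives of Sp8 did not share its pattern of levels. Of 8 listed paralogs, Sp1, Sp3 and Sp4 were in the table and were above the test level on every array. In the earlier comparison 1 of the 3 was called higher in CGE cells, where 5.9% of all genes were, and this was Sp4 at 0.62 ± 0.16 (limma, adjusted p = 0.0327), a call that 8 of 23 other settings did not make. Sp1 was at -0.28 ± 0.15 and Sp3 at -0.11 ± 0.15. At E18.5 limma called 0 of the 3, of which 0 had an unadjusted p under 0.05 and other settings called up to 1, at 0.33 ± 0.16 for Sp4, 0.18 ± 0.15 for Sp3 and -0.17 ± 0.15 for Sp1. Of 10 tested Klf genes, limma called 0 in the earlier comparison, where 4 had an unadjusted p under 0.05 and other settings called up to 3. At E18.5, 3 were called higher and 2 lower in CGE cells, against 9.85% and 13% of all genes, among them Klf9, a thyroid hormone responsive factor, at -1.82 ± 0.51, Klf11 at 1.03 ± 0.22 and Klf7, which acts in axon growth, at 0.85 ± 0.14. In MGE cells Klf9 was also higher at E18.5 than at E14.5 by 4.98 ± 0.51 (limma, adjusted p = 2.89e-05), with levels of 8.68 and 3.69. Klf9 was above the test level only on MGE arrays at E18.5 and was tested through them alone, so its calls are no independent support. Prox2, the paralog of Prox1, and Sp9, the closest relative of Sp8, were not analysed here.

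Genes known from the CGE lineage were gathered with earlier results of these data in view, so that their direction is no independent support. Of 12 tested, 12 were called higher in CGE cells in the earlier comparison, where 5.9% of all genes were, with a median of 3.46 against 0.02 over all genes. They were led by Synpr, a synaptic vesicle protein, at 6.22 ± 0.24, Pbx3, a homeodomain partner protein, at 5.06 ± 0.19, and Adarb2, of the RNA deaminase family, at 5.01 ± 0.21. At E18.5, 9 of 12 were called higher, against 9.85% of all genes (median 2.66 against 0.02), led by Synpr (6.14 ± 0.24), Adarb2 (4.51 ± 0.21) and the serotonin receptor Htr3a (3.92 ± 0.25). The 3 that were not called were Nfix at 1.19 ± 0.40, Npas1 at 0.83 ± 0.28 and Npas3 at -0.07 ± 0.18.

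Some of these genes came up in late MGE cells as Prox1 did and others did not. In MGE cells 3 of 12 were called higher at E18.5 than at E14.5, where 11.4% of all genes were. These were the nuclear factor Nfix by 2.62 ± 0.40, Pbx3 by 2.13 ± 0.19 and Nfib by 1.42 ± 0.22. Another 3 were called lower, where 9.77% of all genes were, and these were Nr2f1 at -1.17 ± 0.12, Cbln2 at -1.01 ± 0.24 and Nr2f2 at -0.78 ± 0.18. The other 6 were not called. Of them Synpr, at 0.10 ± 0.24, and Adarb2, at 0.16 ± 0.21, lay closest to 0, and Htr3a, at -0.72 ± 0.25, lay farthest from it. Cbln2, Synpr and Adarb2 were below the test level on every MGE array and were tested through CGE arrays alone. Nothing is read from their differences between days in MGE cells. In CGE cells 5 of 12 were called lower and 0 higher at E18.5 than at E16.5 in limma, where 6.37% of all genes were called lower and 4.49% higher, and 0 members were higher at an unadjusted p under 0.05.

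Of 12 genes of CGE interneuron subtypes 8 were in the table, and 5 of the 8 were tested. The chemokine gene Cxcl14 was higher in CGE cells by 4.98 ± 0.51 in the earlier comparison (limma, adjusted p = 6.13e-05), and it was -0.73 ± 0.51 at E18.5, as it rose by 3.69 ± 0.51 between days in MGE cells and fell by 2.02 ± 0.51 in CGE cells. Reln, which encodes the secreted protein reelin, fell by 3.34 ± 0.39 in CGE cells and fell by 2.89 ± 0.39 in MGE cells. Id2, an inhibitor of helix-loop-helix factors, was at -1.03 ± 0.20 in CGE relative to MGE cells at E18.5, which passed the test, and rose between days by 0.90 ± 0.20 in MGE cells. Between days Ndnf fell by 2.83 ± 0.46 in CGE cells and was -0.96 ± 0.46 in MGE cells, and Cck was -0.21 ± 0.31 in CGE cells and fell by 1.39 ± 0.31 in MGE cells.

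Regulators that act with Sp8 in the lateral eminence and olfactory bulb were higher in CGE cells for 4 of 9 tested members in the earlier comparison and for 6 of 9 at E18.5, where 5.9% and 9.85% of all genes were, with 0 called lower in either by limma and, at an unadjusted p under 0.05, 0 lower in the earlier comparison and 1 lower at E18.5. Pax6, a paired-box factor, led with 4.27 ± 0.32 in the earlier comparison and 5.25 ± 0.32 at E18.5, before the homeodomain factor Meis2 with 3.38 ± 0.53 and 3.65 ± 0.53. Pax6 was below the test level on every MGE array and was tested through CGE arrays alone, so its differences are no independent support. Prokr2, a receptor needed by neurons that migrate to the olfactory bulb, was higher by 2.20 ± 0.20 in the earlier comparison but 0.21 ± 0.20 at E18.5, and its level in MGE cells was 9.62 at E18.5 against 6.02 at E14.5. Dlx1, whose control elements drive the CGE reporter, was 0.95 ± 0.12 higher in CGE cells at E18.5. Of 6 tested genes of Fgf signalling, the patterning pathway that Sp8 works with, 3 were called lower in CGE cells in the earlier comparison, against 4.16% of all genes, and 4 at E18.5, against 13%. At E18.5 Spry1, a feedback inhibitor, was -4.00 ± 0.19 and Spry2 -1.25 ± 0.22. In MGE cells Spry1 was 2.92 ± 0.19 higher at E18.5 than at E14.5. Spry1 was above the test level only on MGE arrays at E18.5 and was tested through them alone. Its differences are therefore no independent support, and counts that include it are partly set by the filter.

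Of 14 genes listed as co-factors or targets of Prox1 in other tissues, 6 were tested. In the earlier comparison 2 were called higher and 2 lower in CGE cells, against 5.9% and 4.16% of all genes. The nuclear receptor Nr2f2, a partner of Prox1 in lymphatic endothelium, was higher by 2.79 ± 0.18, the receptor Rora was -2.52 ± 0.24 and the cell cycle inhibitor Cdkn1c was -1.99 ± 0.18. In MGE cells, between E18.5 and E14.5, 2 were called higher and 3 lower, against 11.4% and 9.77% of all genes. Notch1 was higher by 2.67 ± 0.29 and Cdkn1c was -1.73 ± 0.18, while Hdac3, a co-repressor, was -0.26 ± 0.15 and did not pass the test. As a check of the labels, 5 of 5 tested regulators of the MGE lineage were called lower in CGE cells in both lineage comparisons, where 4.16% and 13% of all genes were. Lhx6, which marks that lineage, was nevertheless bright in CGE arrays, at 10.45 to 10.87 at E18.5 and 10.24 to 11.33 at E16.5, against 12.45 to 12.80 in MGE arrays at E18.5 and 12.81 to 12.99 at E14.5. In CGE relative to MGE cells at E18.5, Lhx6 was -1.97 ± 0.23, Mef2c -1.73 ± 0.20, Maf -1.23 ± 0.17 and Satb1 -0.55 ± 0.11, and Sox6 had levels of 8.69 in CGE cells and 10.70 in MGE cells.

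Likeness of pattern was measured as Pearson's r with the main probe set over the 12 arrays, across the 8795 genes. Arrays of 1 group share their group mean, so r mainly follows the 4 group means, and it is given as a description. The genes most like Sp8 were Synpr (r = 0.997), Adarb2 (0.993), the histone deacetylase Hdac9 (0.990), Pax6 (0.982), the mineralocorticoid receptor Nr3c2 (0.977), the guidance molecule Slit1 (0.974), Gt(ROSA)26Sor (0.969), the secreted factor Wnt5a (0.969), Htr3a (0.967) and Prox1os (0.965). In all, r passed 0.95 for 23 genes. Gt(ROSA)26Sor comes from the Rosa26 locus, into which the YFP allele of the MGE embryos is placed, and its group means were 8.77 and 7.82 in CGE cells at E18.5 and E16.5, against 4.73 and 4.47 in MGE cells at E18.5 and E14.5. The most opposite genes were Tgfb3 (-0.991), Mmp17 (-0.989), Gria4 (-0.978), Igfbp4 (-0.978) and Nxph1 (-0.974).

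The genes most like Prox1 were different ones, and 0 of the 10 were shared with the list of Sp8. They were the zinc-finger factor Sall1 (r = 0.970), Nfib (0.970), Pbx3 (0.969), the helix-loop-helix inhibitor Id4 (0.967), the zinc-finger factor St18 (0.967), Mob3b (0.966), the G protein regulator Rgs16 (0.962), the kinase Prkd3 (0.959), the cAMP sensor Rapgef3 (0.955) and Elmod1 (0.954). Their means in late MGE cells lay between the CGE means and the early MGE mean, as for Prox1. Sall1 had group means of 10.15 and 10.02 in CGE cells at E18.5 and E16.5, against 7.67 and 5.41 in MGE cells at E18.5 and E14.5, and Rapgef3 had 8.81 and 8.79 against 8.33 and 4.83. The r of Prox1os with Prox1 was 0.84, below the 13 genes with an r over 0.95. The most opposite genes were the kainate receptor Grik1 (-0.967), Rai2 (-0.963), Cdkn1c (-0.954), Stac2 (-0.953) and Celf2 (-0.951). By Spearman's rho 0 of the 10 genes of Sp8 and 1 of the 10 of Prox1 were again among the first 10.

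**Figure D4:**
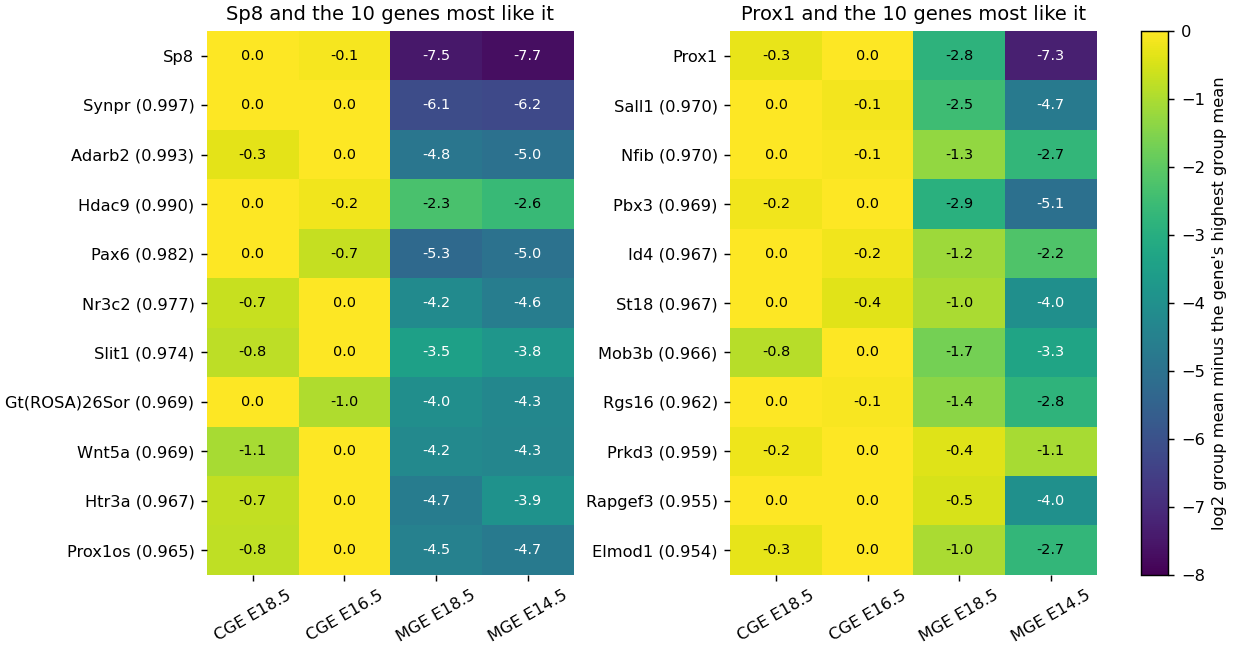
Each cell gives a gene's group mean minus its highest group mean on the log2 scale, for Sp8 and Prox1 and the 10 genes most like each (rows, with r over the 12 arrays) in the 4 groups (columns). For Sp8 and its 10 genes both MGE columns lie below both CGE columns, while for Prox1 and its 10 genes MGE cells at E18.5 lie between the CGE columns and MGE cells at E14.5.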

How the data were processed

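RNA of sorted mouse embryonic cortical cells was measured with 12 Affymetrix Mouse430_2 arrays, 3 for each of CGE cells at E18.5 and E16.5 and MGE cells at E18.5 and E14.5. RNA was extracted with an RNeasy kit and amplified with the NuGEN Ovation Pico system. The deposited values are log2 intensities that the authors had background-corrected and normalised with Bioconductor. The name MAS5 stands, with no version, in the notes of the submitters on processing, so the normalisation method is not settled. The values lay between 3.23 and 14.97, and array medians lay between 7.75 and 7.81. Arrays have no read depth, and their number limits the precision.

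Of 27094 probe sets, 34 controls were left out, and 22339 had 1 gene symbol in the platform annotation. Probe sets above the 40th percentile of their array on at least 3 arrays were kept (16008), and the brightest kept probe set on average stood for its gene, which gave 8795 genes. A linear model with a mean for each group was fitted to all 12 arrays in limma 3.58.1 (lmFit, contrasts.fit and eBayes, under R 4.3.3), with 8 residual degrees of freedom, to which moderation added 3.60. The steps were tested on simulated data first. P-values were two-sided, with Benjamini-Hochberg adjustment across the 8795 genes of a comparison, or across the 16008 probe sets where another probe set of Prox1 is given. Genes were called at an adjusted p under 0.05. Differences are CGE minus MGE, or E18.5 minus the earlier day.

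The members, the gene lists and the marker lists were chosen with earlier results of these data known. Named genes were every probe set of Sp8 and Prox1, Prox1os, the 10 genes most like and the 5 most opposite to each, and, from each list, every member of lists with 5 or fewer tested members, otherwise the 3 called members with the largest difference. For the Sp and CGE lineage lists the members not called were added. Other list members were named after their values were seen. Of the lists of other cells, those of pallial glutamatergic neurons, Cajal-Retzius cells and erythroid cells were also examined. Promoter windows came from RefSeq, GRCm38.p6. Alternatives covered the filter, normalisation, choice of probe set, array weights, replicate block, variance moderation and arrays left out.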

Additional observations from a re-analysis of the deposited data

Results flagged for a closer look

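The difference between the days ran in opposite directions in the lineages for each of the 3 Prox1 probe sets. It was negative in CGE cells and positive in MGE cells, so that CGE maturation minus MGE maturation came to -4.75 ± 0.27 for 1437894_at, -3.76 ± 0.35 for 1421336_at and -2.33 ± 0.34 for 1457432_at (log2 difference ± SE, n = 3 arrays per group). The CGE part of each value did not pass the test. The contrast was a reason for choosing the gene, so it is given with no test. Oligodendrocyte precursor markers were higher on the same MGE arrays at E18.5, and their part in the difference was not tested.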

How the results depend on the processing

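Over 23 other settings Sp8 stayed higher in CGE cells by 7.55 to 7.68 in the earlier comparison and by 7.36 to 7.57 at E18.5. Prox1 stayed higher by 6.42 to 7.49 and by 2.36 to 2.80, with an adjusted p of at most 9.04e-05 in limma at E18.5. Between days in MGE cells, where Sp8 was below the test level on every array and nothing is read from its value, it was 0.29 with array weights. With the mean of its kept probe sets Prox1 was 3.23 higher at E18.5 than at E14.5 in MGE cells, and its lineage difference changed by -3.61. Values of Sp8 and Prox1os between days changed sign. Sp8 between days in CGE cells was -0.015 without CGE E18.5 replicate 2, in a range of -0.015 to 0.19 over the arrays left out, and Prox1os between days in MGE cells was -0.14 without MGE E18.5 replicate 1, in a range of -0.14 to 0.50, with every MGE array below the test level. Counts of genes called moved more. The earlier lineage comparison had 885, or 1814 with array weights, 546 with replicates 1 and 2 of MGE E14.5 averaged, and 532 to 1004 with 1 array left out, the lowest without MGE E14.5 replicate 1 (561 without replicate 2). CGE maturation had 955, or 175 from its own arrays alone, 543 with array weights and 374 to 1207 with 1 array left out, the lowest without CGE E16.5 replicate 3 (470 without CGE E18.5 replicate 2). MGE maturation had 1866, or 3490 with array weights, 1210 with the 2 replicates averaged and 1168 to 2012 with 1 array left out, the lowest without MGE E18.5 replicate 3 (1220 and 1211 without MGE E14.5 replicates 1 and 2). The causes were not tested. MGE E14.5 replicates 1 and 2 were the closest pair, with an SD of their differences of 0.23 against 0.38 to 0.52 for other pairs, and were kept as 2 samples. A fit from the arrays of 2 compared groups alone cannot give the change of the lineage difference, which needs all 4 groups, so that setting has no value for it. A pseudocount was not run on log2 values.

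Replicate numbers were not used to pair the samples in the main model. Deviations of same-numbered arrays correlated at -0.125 to 0.273, over 0.1 in 3 of 12 pairs, which does not settle whether the numbers pair the arrays. With the replicate block the differences of Sp8 were 7.61 and 7.48 between lineages and those of Prox1 7.30 and 2.55, and the calls numbered 828 in the earlier and 1941 in the later lineage comparison, 869 for CGE maturation and 1712 for MGE maturation.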
